A study of Mus musculus with 25 samples.

Results

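The genes described here are the secreted and membrane-bound proteases that cut extracellular matrix, and their inhibitors, in the forming mouse palate. They were taken by symbol as every Mmp (matrix metalloproteinase), every Adamts (a disintegrin and metalloproteinase with thrombospondin motifs) and every Timp (tissue inhibitor of metalloproteinases) in the expression table. That gave 46 of 37406 genes, of which 23 were Mmp genes, 19 were Adamts genes and 4 were Timp genes. No expression value was used to choose them.

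RNA was measured in 25 laser capture microdissected samples of wild type CD1 embryos at stage E14.5, all untreated. The anterior and the posterior palate were each cut into medial, lateral, oral and nasal pieces, which gave 8 compartments with 3 libraries each, except for 4 in the anterior nasal one. Oral and nasal, and medial and lateral, are 2 ways of dividing the same shelf, so a medial sample holds oral and nasal tissue. Levels are in RPKM, a read count divided by transcript length and by the mapped reads of the library, as the authors deposited them. The study's text calls the replicates biological, while the labels do not tie libraries to embryos, so every p-value measures the spread between these libraries.

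Matrix metalloproteinases are made as inactive proenzymes. Most are secreted and are switched on outside the cell by other proteases, while the membrane-type enzymes are activated inside the cell and act at its surface. Mmp14, the best known membrane-type enzyme, cuts the proenzyme of Mmp2 with the help of Timp2, which both bridges the pair and inhibits them in excess. ADAMTS enzymes remain bound to the matrix and cut proteoglycans such as versican and aggrecan, trim the amino-terminal propeptides of fibrillar procollagens, or act on fibrillin microfibrils. During palate formation the shelves are filled with hyaluronan and versican, elevate and then fuse, and mice lacking Adamts20 with reduced Adamts9 have cleft palate.

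Of the 23 Mmp genes, 10 lay in 1 cluster on chromosome 9 (chr9:7272514-7699416, in the mm9 coordinates of the table), which held Mmp13, Mmp12, Mmp1b, Mmp3, Mmp1a, Mmp10, Mmp8, Mmp27, Mmp20 and Mmp7. None of these 10 reached 5 RPKM in 3 libraries, and 8 had a mean under 1 RPKM over the 25 libraries. Of the 13 Mmp genes elsewhere, 9 reached 5 RPKM in 3 libraries and 3 had a mean under 1 RPKM. The cluster genes also differed from the others in promoter sequence. The 250 bases before the annotated start sites, from RefSeq on the build GRCm38.p6, are shown for Mmp13, Mmp3 and Mmp7 of the cluster, for Mmp11, an abundant gene outside it, and for Adamts3 and Adamts17, whose levels differed between compartments. They are written along the gene's own strand, with matches on either strand in capitals to TGANTCA (the AP-1 motif of Jun and Fos dimers), TATAAA (the TATA box) or GGGCGG (the GC box of Sp1-type factors).
Mmp13, chr9:7272264-7272513, plus strand: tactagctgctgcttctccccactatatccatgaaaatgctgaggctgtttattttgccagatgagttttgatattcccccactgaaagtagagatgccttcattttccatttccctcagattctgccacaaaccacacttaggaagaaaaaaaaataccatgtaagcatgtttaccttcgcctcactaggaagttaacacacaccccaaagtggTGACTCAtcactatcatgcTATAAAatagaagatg
Mmp3, chr9:7445572-7445821, plus strand: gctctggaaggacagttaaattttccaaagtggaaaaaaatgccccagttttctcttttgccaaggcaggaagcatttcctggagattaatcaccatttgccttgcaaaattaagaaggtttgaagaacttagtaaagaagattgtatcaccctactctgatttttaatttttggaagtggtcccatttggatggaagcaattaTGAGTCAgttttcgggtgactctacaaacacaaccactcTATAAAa
Mmp7, chr9:7691840-7692089, plus strand: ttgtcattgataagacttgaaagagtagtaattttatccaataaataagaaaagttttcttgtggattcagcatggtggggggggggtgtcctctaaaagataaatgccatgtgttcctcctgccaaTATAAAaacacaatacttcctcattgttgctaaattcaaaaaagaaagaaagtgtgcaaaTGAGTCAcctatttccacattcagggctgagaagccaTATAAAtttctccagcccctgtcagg
Mmp11, chr10:75932503-75932752, minus strand: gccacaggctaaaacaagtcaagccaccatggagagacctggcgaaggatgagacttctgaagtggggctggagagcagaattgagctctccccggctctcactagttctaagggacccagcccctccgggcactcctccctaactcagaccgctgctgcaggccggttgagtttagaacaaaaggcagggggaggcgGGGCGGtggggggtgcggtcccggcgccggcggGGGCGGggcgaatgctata
Adamts3, chr5:89883335-89883584, minus strand: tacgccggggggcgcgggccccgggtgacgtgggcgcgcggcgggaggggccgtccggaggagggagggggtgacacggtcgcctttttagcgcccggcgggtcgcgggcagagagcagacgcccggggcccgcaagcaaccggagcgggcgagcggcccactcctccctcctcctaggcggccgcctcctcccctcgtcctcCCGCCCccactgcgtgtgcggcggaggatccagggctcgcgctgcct
Adamts17, chr7:66839485-66839734, plus strand: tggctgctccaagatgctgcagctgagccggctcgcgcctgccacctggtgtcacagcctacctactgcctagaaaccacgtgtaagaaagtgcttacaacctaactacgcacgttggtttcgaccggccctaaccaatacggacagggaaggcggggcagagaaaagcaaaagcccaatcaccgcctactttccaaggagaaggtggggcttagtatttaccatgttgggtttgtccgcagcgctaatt
The AP-1 letters stood 35 bases before the start of Mmp13, 46 before that of Mmp3 and 63 before that of Mmp7. The TATA letters stood 16 bases before the start of Mmp13 and 7 before that of Mmp3, and at 123 and 26 bases in Mmp7. Mmp11 held the GC box at 52 and 19 bases and Adamts3 at 47 bases, and the window of Adamts17 held none of the 3 motifs. No match overlapped another in the windows shown.

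A promoter window was listed for 32 of the 46 genes, with all 10 genes of the cluster among them. The AP-1 letters occurred in 8 of the 12 cluster windows (66.7%), since Mmp12 and Mmp7 have 2 annotated starts each, and in 0 of the 23 windows of the other protease and inhibitor genes, against 6.75% of all 32851 windows of that length. The TATA letters occurred in 58.3% of cluster windows, 8.7% of the other windows and 12.4% of all windows. The GC box occurred in 0 of 12 cluster windows, in 69.6% of the other windows and in 32.7% of all windows. Median GC content was 40.2% in the cluster, 63.6% in the other windows and 52.4% overall. These counts are descriptions of letters, and whether any factor binds there was not measured.

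The steps between low values implied a depth of about 1.64 M to 6.56 M reads per library (M for mega), with a median of 3.27 M. This is far below the sequencing depth that the study's methods state, and it would refer to reads left after duplicate and multiply aligned reads were removed. How many were removed is not given, so the estimate could not be checked against it. One read on a transcript of 2000 bases is then worth 0.0763 to 0.305 RPKM, and at 5 RPKM the counting error of such a transcript is 12.4% to 24.7% of its level. Mesenchyme markers, led by Col1a1 and Col3a1, summed to 435 to 801 RPKM and were the highest of the marker sums in every library. Endothelial markers summed to 55.2 to 191 RPKM, macrophage markers to 39.8 to 157 RPKM, epithelial markers to 13.7 to 117 RPKM and red cell markers to 154 to 673 RPKM, so RNA of other cells was present in all libraries. The second posterior medial library stood apart, with a correlation to its replicates of 0.612 and 0.691 on the log2 scale across genes, where the best pair, both anterior medial, reached 0.932. The first anterior oral library was the next weakest, at 0.661 and 0.745. Libraries were sequenced in 8 runs, and all anterior medial libraries were in a run that held no anterior lateral library, so run and compartment cannot be told apart in that comparison.

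Mmp2, the 72 kDa type of gelatinase that degrades denatured and type IV collagen, had the highest mean of the 46 genes at 84.7 RPKM, above 98.9% of all genes in the table. Timp2 followed at 78.4 RPKM, then Mmp14 at 57.4 RPKM and Mmp11, a stromelysin first known from stroma around tumours, at 46.7 RPKM. The most abundant Adamts gene was Adamts10, which acts on fibrillin microfibrils, at 34.4 RPKM. Timp3, the inhibitor that stays bound to matrix and also blocks ADAMTS enzymes, averaged 30.3 RPKM. Adamts1, a versican-cutting enzyme, averaged 30.0 RPKM, and the membrane-type Mmp16 averaged 23.6 RPKM.

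**Figure D1:**
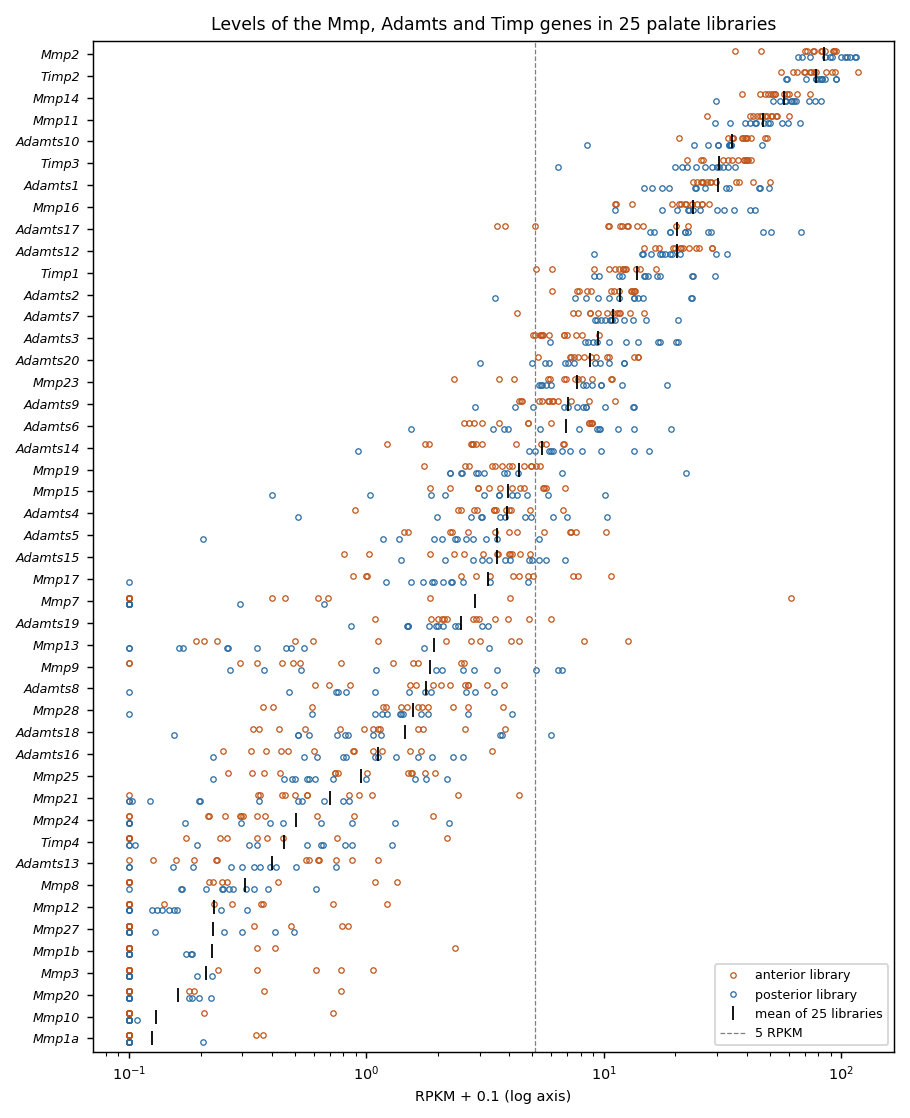
Level of each of the 46 genes (rows, ordered by mean) as RPKM + 0.1 on a log axis, with 1 point per library, orange for anterior and blue for posterior, a bar at the mean of 25 libraries and a dashed line at 5 RPKM. Mmp2, Timp2, Mmp14 and Mmp11 form the top at means of 84.7 to 46.7 RPKM, and the chromosome 9 Mmp genes fill most of the bottom with many libraries at 0.

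Of the 46 genes, 26 reached 5 RPKM in at least 3 libraries, and these were 9 of 23 Mmp, 14 of 19 Adamts and 3 of 4 Timp genes. At the top, 10 genes were at 5 RPKM or more in all 25 libraries. At the bottom, 16 genes never reached 5 RPKM and 5 never reached 1 RPKM, and 11 of the 13 genes with a mean under 1 RPKM were Mmp genes. Levels were thus concentrated in few Mmp genes: Mmp2, Mmp14 and Mmp11 together made up 64.4% to 83.9% of the summed Mmp RPKM of a library. The Adamts family was spread more evenly, from Adamts10 through Adamts1, Adamts17 (20.3 RPKM), Adamts12 (20.2 RPKM), Adamts2 (11.6 RPKM) and Adamts7 (10.8 RPKM) down to Adamts13, the plasma enzyme that trims von Willebrand factor, at 0.300 RPKM.

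Among the inhibitors, Timp2 ranged from 55.4 to 117 RPKM with a median of 77.9 RPKM and made up 52.1% to 79.3% of the summed Timp level. Timp3 ranged from 6.31 RPKM, in the second posterior medial library, to 41.4 RPKM. Timp1, an inhibitor often induced by growth factors, ranged from 5.08 to 29.4 RPKM, and Timp4 was listed at 0 in 7 libraries with a mean of 0.351 RPKM. The order Timp2, Timp3, Timp1 held for the compartment means in 7 of 8 compartments, and in the posterior medial compartment Timp1 averaged 16.8 RPKM beside 15.8 RPKM for Timp3, a gap far smaller than their SDs of 6.18 and 8.27 RPKM (n = 3). Timp1, Timp3 and Timp4 each lie within or across a synapsin gene (Syn1, Syn3 and Syn2), and since it is not stated whether strand was used in counting, reads of such pairs cannot be assigned with certainty. The synapsin genes were listed at means of 1.61, 4.00 and 0.319 RPKM.

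The membrane-type genes covered a wide span. Mmp14 ranged from 29.6 to 81.6 RPKM and Mmp16 from 11 to 43 RPKM. Mmp15 averaged 3.84 RPKM and Mmp17, which is held to the membrane by a lipid anchor, averaged 3.16 RPKM. Mmp25 and Mmp24 averaged 0.844 and 0.407 RPKM, and Mmp24 overlaps BC029722, listed at a mean of 10.8 RPKM. Among the Mmp genes of other groups, Mmp23 averaged 7.61 RPKM with a highest value of 18.3 RPKM in a posterior nasal library. Mmp19 averaged 4.30 RPKM, and its highest value, 22.1 RPKM in the second posterior medial library, was followed by 6.57 RPKM in the next library. Mmp19 overlaps Tmem198b, listed at a mean of 10.1 RPKM, so its reads cannot be assigned with certainty either.

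The Adamts genes are given by what their enzymes cut. Of the 3 that trim procollagen, Adamts2, Adamts3 and Adamts14 averaged 11.6, 9.36 and 5.39 RPKM. Both enzymes known to cut cartilage oligomeric matrix protein were present in every library, Adamts12 between 8.98 and 32.8 RPKM and Adamts7 between 4.21 and 20.4 RPKM. Of the proteoglycan-cutting group, Adamts1 was highest, followed by Adamts20 (8.61 RPKM), Adamts9 (6.98 RPKM), Adamts4 (3.79 RPKM), Adamts5 (3.45 RPKM), Adamts15 (3.44 RPKM) and Adamts8 (1.68 RPKM). The neighbours Adamts4, Adamts5 and Adamts15 in this order differed by far less than their ranges over libraries, which were 0.416 to 10.2, 0.105 to 10.1 and 0.706 to 6.74 RPKM.

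Across the 8 compartments Mmp14, Timp2 and Mmp11 varied least of the 26 genes that reached 5 RPKM in 3 libraries. The highest compartment mean of Mmp14 was 1.30 times its lowest, that of Timp2 1.31 times and that of Mmp11 1.49 times. The ratio was 1.77 for Mmp2, above those of the less abundant Adamts12 (1.51) and Adamts20 (1.68). Other abundant genes varied more, with ratios of 1.85 for Adamts10, 2.19 for Adamts1, 2.48 for Timp3 and 3.06 for Mmp16. Over the 26 genes that reached 5 RPKM in 3 libraries the median of this ratio was 2.55, beside 1.68 over the 11913 genes that did so in the whole table, and 5 of the 26 exceeded 4-fold, beside 8.85% of genes. Those 5 were Adamts6 (4.14), Adamts5 (5.17), Adamts14 (8.46), Adamts17 (11.5) and Mmp9 (27.8, on levels of 0.195 to 5.42 RPKM). Of the 26, 8 stayed under 2-fold, beside 68.6% of genes. Low genes give larger ratios by counting error alone, so the ratios are not comparable across levels. In bulk samples such as these, fewer cells that make a transcript and less of it per cell cannot be told apart.

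**Figure D2:**
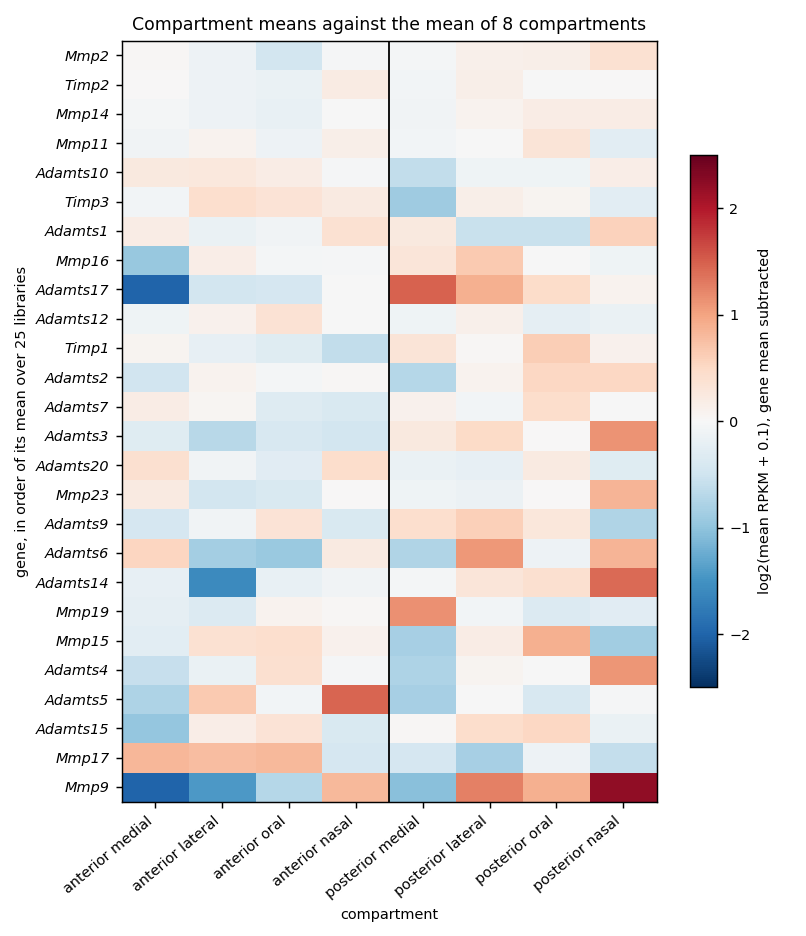
Compartment means of the 26 genes that reached 5 RPKM in at least 3 libraries (rows, in order of mean level), as log2(mean RPKM + 0.1) after subtracting each gene's mean over the 8 compartments (columns). Red is above and blue below that mean. Timp2, Mmp14 and Mmp11 near the top are pale, while Adamts17 turns from blue in the anterior medial compartment to red in the posterior medial one, and Adamts3, Adamts14 and Mmp9 are reddest in the posterior nasal compartment.

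In the anterior palate the comparison of lateral with medial asks how the side of the shelf near the midline differs from its base. Mmp16, a membrane-type enzyme, and Adamts17, a relative of Adamts10, were higher laterally. Adamts6, another relative of Adamts10, was higher medially, but it entered the test only through its medial libraries, so some difference was built into its being tested. Of 18 members tested these 3 passed an adjusted p under 0.05, beside 2.51% of the 10427 genes tested. The same 3 passed the study's own threshold, an unadjusted p under 0.05 with a fold over 2, which 2.37% of genes passed. Testing required 5 RPKM in at least 3 of the 6 libraries. Medially only a value of 5.05 RPKM of Adamts17 was that high. It thus met the minimum only with its lateral libraries, and some difference was built in there too. At a minimum of 1 RPKM Adamts17 still passed.

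Mmp16 (chr4:17780040-18045881) measured 23.4, 27.6 and 25.7 RPKM in the lateral libraries and 11.1, 11.2 and 13 RPKM in the medial ones. All lateral values lay above all medial values, and the log2 fold change was 1.12 ± 0.12 (SE; adjusted p = 0.00584). Adamts17 (chr7:73984621-74297511) measured 12.5, 13.7 and 10.3 RPKM laterally and 5.05, 3.71 and 3.45 RPKM medially, again with no overlap, for a log2 fold change of 1.56 ± 0.18 (SE; adjusted p = 0.00649). Adamts6 (chr13:105077953-105284843) ran the other way, with 2.59, 2.47 and 4.68 RPKM laterally and 8.80, 8.71 and 8.55 RPKM medially, for a log2 fold change of -1.45 ± 0.23 (SE; adjusted p = 0.0221). The call on Adamts6 was lost in 5 of 6 refits that each left out 1 library: without the first or second lateral library its adjusted p was 0.0744 or 0.0866, and without any 1 medial library it fell below the minimum. With the minimum at 1 RPKM its adjusted p was 0.0531.

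**Figure D3:**
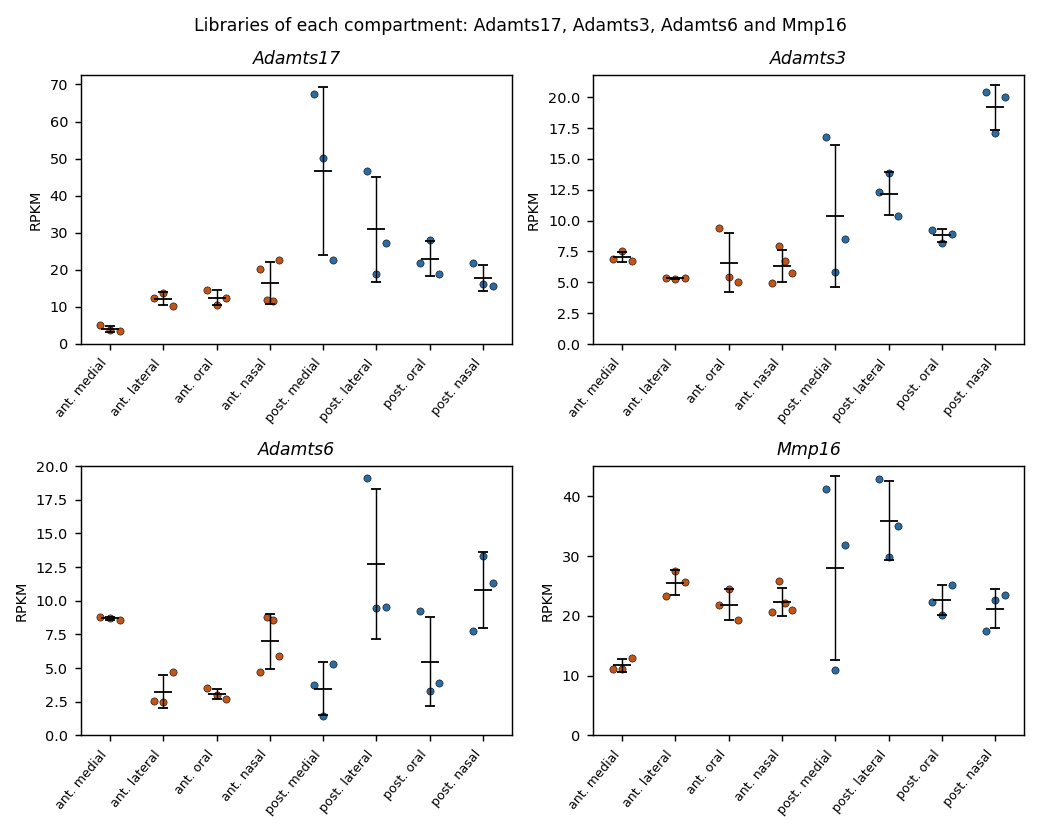
RPKM of Adamts17, Adamts3, Adamts6 and Mmp16 in each library (points, orange anterior and blue posterior) of the 8 compartments, with the mean (wide bar) and SD (whiskers, n = 3, and 4 in anterior nasal), on linear axes from 0. Adamts17 and Mmp16 have their lowest mean in the anterior medial compartment, Adamts3 is highest in posterior nasal at 17.1 to 20.5 RPKM, and Adamts6 is high in anterior medial and low in posterior medial.

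When all 25 libraries shared 1 estimate of the spread, none of the 3 differences passed (adjusted p = 0.24 for Mmp16, 0.088 for Adamts17 and 0.31 for Adamts6), with the fold changes as above. Calls over all 10427 genes fell too, from 262 to 31 in that fit and to 0 with the run added. With the run as a further term in that fit the log2 fold changes were 0.97 ± 0.65 for Mmp16, 1.54 ± 0.70 for Adamts17 and -1.25 ± 0.96 for Adamts6, each with an adjusted p of 1, and the median over the members moved from -0.09 to 0.23. Among the other 15 members tested, the largest differences were in Mmp23 (log2 fold change -0.72, adjusted p = 0.229), Adamts2 (0.56, adjusted p = 0.0718), Timp3 (0.50, adjusted p = 0.106), Adamts20 (-0.46, adjusted p = 0.234) and Adamts3 (-0.39, adjusted p = 0.12). Lateral and medial libraries did not overlap in 10 of the 18 members, beside 21.3% of all genes tested. The median log2 fold change was -0.09 over the members and -0.03 over all genes. Cartilage markers summed to 19.6 to 37.1 RPKM in the anterior medial libraries and 9.85 to 12.5 RPKM in the lateral ones, and endothelial markers to 102 to 123 and 142 to 162 RPKM. Their part in these results was not tested.

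Posteriorly the lateral and medial libraries were compared in the same way, and no member passed. limma called 0 of 19 members and 0 of 10324 genes there, at 1 member and 159 genes with an unadjusted p under 0.05. The member was Adamts6, with 19.1, 9.47 and 9.52 RPKM laterally and 3.71, 1.44 and 5.29 RPKM medially. The groups did not overlap, and the log2 fold change was 1.94 ± 0.56 (SE; unadjusted p = 0.0122, adjusted p = 0.957). It was the only member past the study's threshold, which 1.12% of all genes passed. Medially only the value of 5.29 RPKM was at 5 RPKM or more. Adamts6 thus met the minimum only with its lateral libraries, and some difference was built into its being tested. Lateral and medial libraries did not overlap in 3 of the 19 members, beside 6.62% of genes. Without the second posterior medial library the log2 fold change of Adamts6 was 1.42 ± 0.38 (SE; adjusted p = 1).

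Posterior medial libraries differed widely among themselves. Adamts17 measured 67.4, 50.3 and 22.5 RPKM there and 46.6, 18.9 and 27.3 RPKM laterally, so the groups overlapped. Mmp16 measured 41.2, 11 and 31.9 RPKM medially, the 11 RPKM in the library that stands apart, and 43, 29.8 and 35 RPKM laterally. Among the 26 genes that reached 5 RPKM in 3 libraries, that same library held the lowest value of all 25 for Mmp14 (29.6 RPKM), Mmp16, Mmp15, Mmp17, Timp3, Adamts10 (8.42 RPKM), Adamts12, Adamts2, Adamts20 (2.91 RPKM), Adamts6, Adamts14, Adamts4 (0.416 RPKM) and Adamts5 (0.105 RPKM). It held the highest value for Mmp19, Adamts9 (13.3 RPKM) and Adamts15 (6.74 RPKM), and its Mmp2, at 65.5 RPKM, was within the range of the others. Epithelial markers summed to 102 RPKM in it, and to 13.7 to 21.5 RPKM in the posterior lateral libraries. Their part in these values was not tested.

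Adamts6 thus stood medially above laterally in the anterior palate and laterally above medially in the posterior palate. The test of that difference itself gave -3.39 ± 0.65 on the log2 scale (SE; unadjusted p = 0.000367, adjusted p = 0.291), which did not pass, beside 0.00902% of 11089 genes that did. It passed only with a spread estimated from all 25 libraries (adjusted p = 0.0315). Adamts6 met the minimum there mainly through its anterior medial and posterior lateral libraries, so some difference was built into its being tested. Adamts17 (2.12 ± 0.60, adjusted p = 0.812) and Adamts14 (-2.14 ± 0.92, adjusted p = 0.964) had an unadjusted p under 0.05 in the same test, as 373 genes did, and no other member did. All 3 also passed the study's threshold, as 2.42% of genes did. Adamts14 measured 1.66, 1.73 and 1.12 RPKM in the anterior lateral libraries. It met the minimum mainly through posterior libraries, so some difference was built into its being tested too.

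The oral and nasal faces of the anterior palate were compared next. No member passed: limma called 0 of 21 members and 0 of 10684 genes, at 4 members and 318 genes with an unadjusted p under 0.05. Adamts5, the aggrecanase also known to clear versican, showed the largest difference, with 2.18, 2.57 and 3.39 RPKM orally and 7.12, 7.15, 7.55 and 10.1 RPKM nasally. The groups did not overlap, and the log2 fold change was -1.53 ± 0.26 (SE; unadjusted p = 0.00029, adjusted p = 0.2). Each of the 3 runs that held anterior oral and nasal libraries held both, and Adamts5 was higher nasally within each: 7.12 and 7.15 against 2.18 RPKM, 7.55 against 2.57 RPKM and 10.1 against 3.39 RPKM. Cartilage markers summed to 22.5 to 31.1 RPKM nasally and 8.28 to 15.6 RPKM orally, and endothelial markers to 69.9 to 118 and 121 to 191 RPKM, and their part in these differences was not tested.

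Adamts6 measured 3.5, 2.97 and 2.73 RPKM orally and 4.67, 8.78, 8.58 and 5.88 RPKM nasally, for a log2 fold change of -1.12 ± 0.29 (SE; unadjusted p = 0.00455, adjusted p = 0.824). It and Adamts5 were the members past the study's threshold, which 1.44% of all genes passed. Both reached the minimum only through nasal libraries, so a difference was built into their being tested. Adamts9 (0.68, unadjusted p = 0.0351) and Adamts20 (-0.71, unadjusted p = 0.0495), the pair linked to palate closure, completed the 4, and each had an adjusted p of 1. With the replicate number as a block 2 members rather than 4 had an unadjusted p under 0.05, Adamts5 (-1.41 ± 0.28, unadjusted p = 0.0028, adjusted p = 0.709) and Adamts6 (-1.18 ± 0.35, unadjusted p = 0.0164, adjusted p = 1). Adamts5, Adamts6 and Adamts9 were the 3 members of 21 whose oral and nasal libraries did not overlap, beside 3.67% of genes. The medians were -0.15 over the members and -0.01 over all genes.

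In the posterior palate Adamts3 was higher on the nasal face. This gene (chr5:90102866-90312359), which trims procollagens and also processes the lymphatic growth factor Vegfc, was the 1 member of 20 to pass, beside 1.25% of 10586 genes. It measured 9.26, 8.21 and 8.93 RPKM orally and 20.5, 17.1 and 19.98 RPKM nasally. The groups lay far apart relative to their spread, with a log2 fold change of -1.11 ± 0.20 (SE; adjusted p = 0.0402). Within the runs that held both faces it was 9.26 against 20.5 RPKM and 8.21 and 8.93 against 17.1 RPKM. With the run as a term in the fit, added after the data were seen, the log2 fold change was -1.05 ± 0.24 and the call was lost (adjusted p = 0.281).

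The call on Adamts3 was close to the threshold. Leaving out any 1 of the 6 libraries gave an adjusted p between 0.106 and 0.261, with the log2 fold change between -1.06 and -1.19, and with the replicate number as a block the adjusted p was 0.0839. Beyond Adamts3, 5 members passed the study's threshold, which 3.5% of all genes passed, but not the adjusted one. Adamts1 measured 17.4, 14.7 and 26.4 RPKM orally and 33.6, 49.4 and 45.3 RPKM nasally (log2 fold change -1.15 ± 0.28, adjusted p = 0.13). Adamts14, another procollagen-trimming enzyme, measured 8.02, 4.72 and 5.90 RPKM orally and 15.3, 9.58 and 13.3 RPKM nasally (-1.03 ± 0.28, adjusted p = 0.187).

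Adamts4 measured 4.54, 2.97 and 2.93 RPKM orally and 10.2, 6.88 and 6 RPKM nasally (-1.12 ± 0.28, adjusted p = 0.149). Adamts6 measured 9.26, 3.32 and 3.86 RPKM orally and 7.79, 13.3 and 11.3 RPKM nasally (-1.08 ± 0.40, adjusted p = 0.443), and its groups overlapped. Adamts9 alone of these was higher orally, with 8.29, 8.30 and 8.08 RPKM against 4.93, 4.13 and 2.77 RPKM nasally (1.08 ± 0.25, adjusted p = 0.11). Adamts4 reached the minimum only through nasal and Adamts9 only through oral libraries. Adamts6 met it only with its nasal libraries, since orally only 9.26 RPKM was high enough. Adamts14 also needed its nasal libraries, since 4.72 RPKM orally was too low. Some difference was therefore built into their being tested. Adamts9 overlaps A730049H05Rik, listed at a mean of 4.59 RPKM, so its reads cannot be assigned with certainty in either comparison of the faces.

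Oral and nasal libraries did not overlap in 8 of the 20 members, beside 11.8% of all genes. Mmp11 was among them, with 49.8, 66.8 and 56 RPKM orally and 43.1, 39.1 and 33.7 RPKM nasally (0.57 ± 0.22, unadjusted p = 0.0295, adjusted p = 0.479). Osteoblast markers summed to 282 to 457 RPKM in the posterior nasal libraries and 46.9 to 57.1 RPKM in the oral ones. Cartilage markers summed to 46.8 to 82.2 RPKM nasally and 27.0 to 51.9 RPKM orally, and endothelial markers to 55.2 to 85.9 and 126 to 191 RPKM. Their part in the differences of Adamts3, Adamts1, Adamts14, Adamts4, Adamts6 and Adamts9 was not tested.

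Whether the oral and nasal difference itself changed along the anterior-posterior axis was tested on the 13 libraries of the 4 compartments. None of 22 members passed the adjusted threshold, beside 0.035% of 11442 genes. At an unadjusted p under 0.05 there were 5 members and 387 genes. Adamts4 (1.53 ± 0.47, adjusted p = 0.645), Adamts3 (1.14 ± 0.36, adjusted p = 0.722), Adamts20 (-1.25 ± 0.46, adjusted p = 1) and Adamts5 (-1.16 ± 0.31, adjusted p = 0.422) were past the study's threshold, and 2.38% of all genes were. Adamts5 reached the minimum only through anterior nasal libraries, and Adamts4 only through posterior nasal ones and the third anterior oral one. A difference was therefore built into their being tested. The anterior difference in Adamts3 was 0.03 on the log2 scale, with 9.39, 5.43 and 5 RPKM orally and 4.91, 7.97, 6.71 and 5.75 RPKM nasally.

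All 12 posterior libraries were then compared with all 13 anterior ones with a minimum of 10 RPKM in 6 libraries. Adamts17 and Adamts3 were higher posteriorly and were the 2 members of 15 to pass, beside 3.32% of 8608 genes. Adamts3 reached that minimum only through posterior libraries, so a difference was built into its being tested. With the minimum at 1 RPKM, which libraries of both groups met, it passed too. Adamts17 also had an unadjusted p under 0.05 with a fold over 2 in limma, as 1.75% of genes did, although for this comparison the study used a pooled Audic-Claverie test, which was not run here. No member had posterior and anterior ranges that did not overlap, beside 0.267% of genes. Adamts17 ranged from 15.5 to 67.4 RPKM with a median of 22.2 RPKM posteriorly and from 3.45 to 22.6 RPKM with a median of 11.8 RPKM anteriorly. The ranges overlapped through the nasal libraries, and the log2 fold change was 1.36 ± 0.29 (SE; adjusted p = 0.00558).

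The difference in Adamts17 was unequal among compartments. The medial compartment averaged 46.7 ± 22.6 RPKM posteriorly and 4.07 ± 0.86 RPKM anteriorly (SD, n = 3), while the nasal compartment averaged 17.8 ± 3.45 RPKM posteriorly (n = 3) and 16.5 ± 5.66 RPKM anteriorly (n = 4). Within single runs the posterior medial mean was 36.4 RPKM against 4.07 RPKM, the lateral 23.1 against 10.3 RPKM, the oral 21.9 against 12.4 RPKM and the nasal 21.8 against 22.6 RPKM. Adamts17 was therefore higher posteriorly within 3 of the 4 such pairs. With the run as a term in a fit of all 25 libraries the log2 fold change was 1.23 ± 0.25 (SE; adjusted p = 0.0238).

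Adamts3 ranged from 5.83 to 20.5 RPKM with a median of 11.3 RPKM posteriorly and from 4.91 to 9.39 RPKM with a median of 5.75 RPKM anteriorly. Its log2 fold change was 0.91 ± 0.18 (SE; adjusted p = 0.00187), and 1.002 ± 0.16 without the second posterior medial library. Within runs it was 20.5 against 5.75 RPKM nasally, 12.1 against 5.35 RPKM laterally and 9.26 against 5 RPKM orally, but 7.15 against 7.05 RPKM medially. With the run as a term the log2 fold change was 0.96 ± 0.18 (SE; adjusted p = 0.0178). Both calls stood without any 1 of the 25 libraries.

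The remaining members tested did not pass. Timp1 (0.52 ± 0.19, adjusted p = 0.171), Mmp2 (0.31 ± 0.15, adjusted p = 0.314) and Timp3 (-0.49 ± 0.19, adjusted p = 0.209) had an unadjusted p under 0.05. Mmp2 ranged from 65.5 to 115 RPKM posteriorly and from 35.5 to 94.9 RPKM anteriorly, where both values under 50 RPKM came from the first anterior oral and the fourth anterior nasal library. The median was 0.15 over the 15 members and 0.03 over all genes. Osteoclast markers summed to 12.7 to 39.3 RPKM posteriorly and 1.96 to 18.5 RPKM anteriorly, most of it from Ctsk in every library, while Calcr and Tm7sf4 never exceeded 1.39 RPKM, and the part of these markers in the results was not tested.

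**Figure D4:**
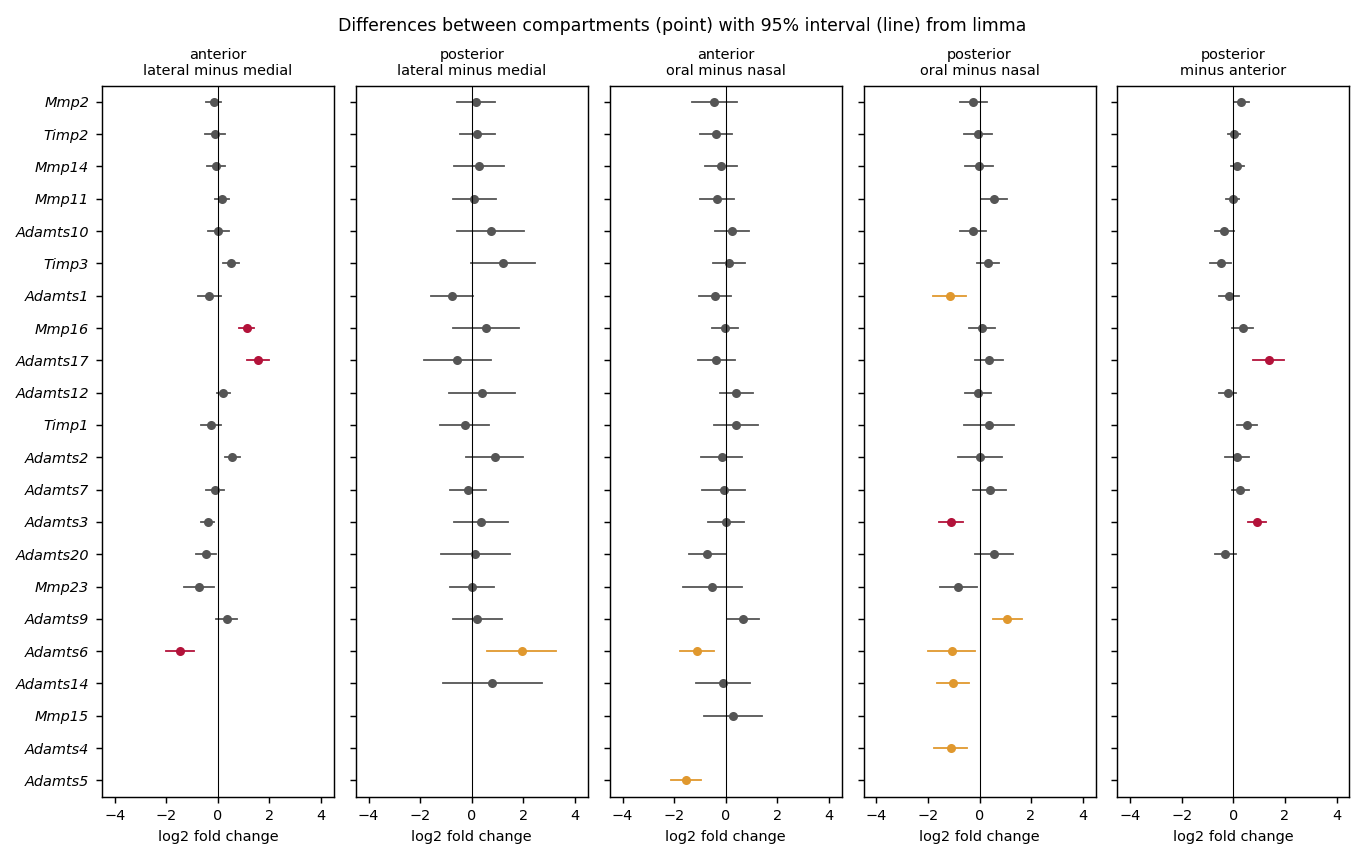
Log2 fold change (point) with 95% interval (line) from limma for each member tested (rows, in order of mean level) in the 5 comparisons. Red marks an adjusted p under 0.05, orange an unadjusted p under 0.05 with a fold over 2, and grey neither, and a blank means below the expression minimum. The points of Mmp2, Timp2, Mmp14 and Mmp11 lie between -0.43 and 0.57 in all panels, and red points are limited to Mmp16, Adamts17, Adamts6 and Adamts3.

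The 4 most abundant genes did not pass in any of these 5 comparisons. Their log2 fold changes lay between -0.43 and 0.31 for Mmp2, between -0.19 and 0.27 for Mmp14, between -0.33 and 0.57 for Mmp11 and between -0.37 and 0.22 for Timp2. The 95% intervals reached from -1.32 to 0.90 for Mmp2 and from -0.81 to 1.24 for Mmp14. They reached from -0.996 to 1.07 for Mmp11 and from -0.995 to 0.89 for Timp2. The intervals of Mmp2, Mmp14 and Mmp11 thus reached past 2-fold, a log2 value of 1, in at least 1 comparison.

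Several members fell below the expression minimum in every comparison but had their own pattern over compartments, and these are given as values. Mmp13, a collagenase made by hypertrophic cartilage and osteoblasts, measured 8.14, 3.97 and 12.5 RPKM in the anterior medial libraries and 0.134, 0.498 and 1.02 RPKM in the anterior lateral ones, with no overlap. Its anterior nasal values were 4.29, 2.92, 2.65 and 0.0919 RPKM, and all posterior values but 3.16 and 1.65 RPKM were under 0.5 RPKM. Cartilage markers, given above, were also higher in the anterior medial than in the lateral libraries, and their part in the Mmp13 level was not tested.

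Mmp9, the gelatinase of osteoclasts and other blood-derived cells, had its highest mean in the posterior nasal compartment, with 6.3, 6.53 and 3.43 RPKM, and measured 2.44, 1.86 and 1.99 RPKM in the posterior oral ones. Its posterior lateral libraries measured 0.430, 5.08 and 2.74 RPKM. Its lowest mean was in the anterior medial compartment, at 0.390, 0.194 and 0 RPKM. Adamts18 also had its highest mean in the posterior nasal compartment, at 5.87, 3.63 and 3.54 RPKM, against 1.05, 0.960 and 0.415 RPKM orally. Its anterior medial libraries, at 1.55, 2.49 and 3.71 RPKM, overlapped the posterior nasal ones. Adamts8, an enzyme of the proteoglycan-cutting group, measured 2.57, 3.12 and 2.14 RPKM in the anterior lateral and 0.505, 0.756 and 0.594 RPKM in the anterior medial libraries.

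**Figure D5:**
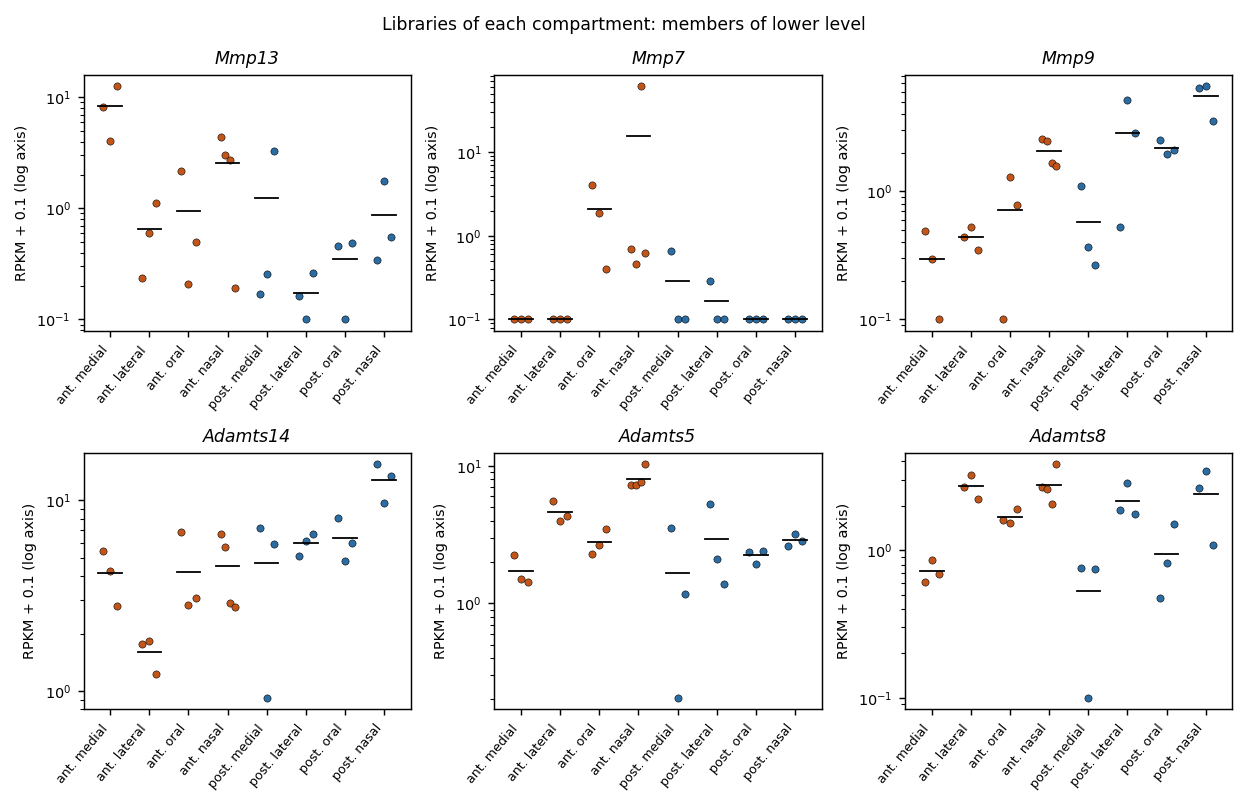
RPKM + 0.1 on log axes for Mmp13, Mmp7, Mmp9, Adamts14, Adamts5 and Adamts8 in each library (points, orange anterior and blue posterior), with a bar at the compartment mean. Points at 0.1 are listed at 0. Mmp13 is highest in anterior medial, Mmp7 rests on 1 anterior nasal library at 61.2 RPKM, Mmp9 and Adamts14 are highest in posterior nasal, and Adamts5 in anterior nasal.

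With the minimum lowered to 1 RPKM in the anterior lateral against medial comparison, 4 of 31 members passed, beside 1.95% of 13924 genes. These were Mmp16, Adamts17, Adamts8 (log2 fold change 1.91 ± 0.20, adjusted p = 0.0153) and Adamts5 (1.44 ± 0.23, adjusted p = 0.0428). Adamts5 measured 5.47, 3.87 and 4.22 RPKM laterally and 2.14, 1.40 and 1.33 RPKM medially. Adamts6 and Mmp13 (-3.80 ± 0.66) then each had an adjusted p of 0.0531. Adamts18 had an adjusted p of 0.0522 in the posterior oral against nasal comparison under that minimum (-2.33 ± 0.38). Adamts8, Mmp13 and Adamts18 reached 1 RPKM in 3 libraries only through their higher group, so a difference was built into their being tested.

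Mmp7, or matrilysin, an enzyme of glandular and mucosal epithelium, was listed at 0 in 16 libraries and at 61.2 RPKM in the third anterior nasal library. The next highest value was 3.90 RPKM, in the first anterior oral library. The third anterior nasal library also had the highest epithelial marker sum of the 25, at 117 RPKM, against 45.5 to 76.3 RPKM in the other anterior nasal libraries, and its part in the Mmp7 level was not tested. Mmp3, Mmp10, Mmp1a, Mmp20 and Mmp27 never reached 1 RPKM and were listed at 0 in 18, 22, 22, 17 and 16 libraries. Mmp1b and Mmp12 overlap in the table's coordinates, so reads between them may be split.

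Other genes of matrix turnover, taken from 3 lists, give the setting. In the anterior lateral against medial comparison, where 2.51% of all genes passed, 2 of 16 other proteases did so, Fap, a fibroblast surface peptidase (2.44 ± 0.16), and Pcsk5, a proprotein convertase (-1.01 ± 0.17). Of 7 other inhibitors Serpine2 (0.95 ± 0.17) and A2m (-1.96 ± 0.28) passed, and of 15 substrates Acan (-2.55 ± 0.30) and Fbln2 (-0.68 ± 0.11). Acan, the aggrecan core protein, was also higher nasally in the posterior palate (-3.23 ± 0.43, adjusted p = 0.0149) and was the 1 of 15 substrates to pass there, beside 1.25% of all genes.

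Between the posterior and anterior palate 5 of 13 other proteases passed, 3 of them higher posteriorly, beside 3.32% of all genes. Ctsk, the collagenolytic cathepsin of osteoclasts and the bulk of the osteoclast sum given above, was highest by fold among them (1.504 ± 0.29, adjusted p = 0.00173), followed by Adam33 (1.02 ± 0.21) and Htra1 (0.74 ± 0.20), while Pcsk5 (-0.61 ± 0.17) and Adam19 (-0.44 ± 0.12) were lower. Of 14 substrates Col2a1 (1.20 ± 0.25) and Col1a1 (0.46 ± 0.12) were higher posteriorly and Fn1 (-0.34 ± 0.08) lower. Col1a1 is one of the procollagens whose propeptide the Adamts2, Adamts3 and Adamts14 enzymes remove. None of 4 other inhibitors passed. No gene of the 3 lists passed in posterior lateral against medial or in anterior oral against nasal. There 0 of 10324 and 0 of 10684 genes of the whole table passed, so this says nothing of the lists.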

How the data were processed

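RNA was amplified with the NuGEN Ovation RNA-Seq V2 system, tagmented with Nextera and sequenced as single reads of 50 bases. The authors deposited 1 table of RPKM values for 37406 genes, computed in GeneSpring 12.6.1 after duplicate and multiply aligned reads were removed. The submitters' processing notes name TopHat and mm9, and the gene annotation is not given in the sources used here. The column of the second anterior medial library keeps its alignment name and was read as RPKM, and 0 value columns were left unused. Groups and replicate numbers came from the labels, and sequencing runs from alignment names in the supplementary tables.

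Values were tested as log2(RPKM + 0.1) with limma 3.58.1 in R 4.3.3 (lmFit and eBayes, two-sided), with Benjamini-Hochberg adjustment over all genes tested. Only the libraries compared entered each fit. Pairs required 5 RPKM in 3 libraries, and posterior against anterior 10 RPKM in 6. Differences on the log2 scale were taken as lateral less medial, oral less nasal, posterior less anterior, and anterior less posterior for the tests of a changed difference. They understate changes of low genes. The study's threshold, an unadjusted p under 0.05 with a fold over 2, is given beside the adjusted one for the pairs. Depth was estimated from the steps between low values. Its absolute scale rests on 89 of 1321 genes whose steps matched an annotated length, against 9 for the next best scale, and such estimates cover counting error only. Coordinates are those of the table, and promoter sequences come from RefSeq on GRCm38.p6. Python 3.11.15 with pandas 2.3.3 and matplotlib 3.10.9 was used for sums and plots, and the test was tried on simulated data.

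Members reaching 5 RPKM in 3 libraries, or passing either threshold, are named, and the rest are given by counts with the highest named. Low members with a pattern of their own were named after their values were seen. The members, gene lists and markers were chosen with earlier results of these data known. Same-numbered anterior oral and nasal libraries had correlated deviations (0.239, 0.215 and 0.13), as did posterior lateral and medial ones (0.226, 0.0361 and 0.277). Posterior oral and nasal ones gave 0.218, -0.0755 and 0.418, the last the highest of all. Anterior lateral and medial ones gave 0.00424, -0.155 and 0.00719. Differently numbered libraries were not compared, and the second anterior oral library shared its run with the third anterior nasal one. Whether the numbers mark pairs is therefore not shown, and the labels do not state it. The block changed no adjusted call in anterior oral against nasal, but it removed that of Adamts3 in posterior oral against nasal. Alternatives were other pseudocounts, minimums and centring, a shared fit of 25 libraries without and with the run, a replicate block, the run as a term (added after the data were seen) and leaving out each library.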

Additional observations from a re-analysis of the deposited data

Results flagged for a closer look

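In the anterior nasal compartment, the only one with 4 libraries, the 46 genes were searched for a library far from the other 3, by the gap to its nearest neighbour as a share of the whole range. The cut-off picks out about 5% of groups when values follow a normal distribution, and 7 of 46 were found. RPKM values with many at 0 do not follow it. A gene with only 1 library above 0, such as Mmp8, is always picked out. The 7 can therefore not be set against the 5%. Mmp7 stood at 61.2 RPKM in library 3, the others being at 0.590 RPKM or lower. Library 4 had the lowest Mmp2 (45.8 RPKM, next 93.0 RPKM), the highest Adamts5 (10.1 RPKM, next 7.55 RPKM) and the highest Timp4 (2.09 RPKM). Of the 4, library 1 had the highest Mmp1b (2.26 RPKM), Mmp8 (0.984 RPKM) and Mmp10 (0.626 RPKM), all genes of the chromosome 9 cluster at levels of few reads.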

How the results depend on the processing

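The counts of members passing an adjusted p under 0.05 were 3 for anterior lateral against medial, 1 for posterior oral against nasal, 2 for posterior against anterior and 0 for the others. Anterior lateral against medial fell to 0 in the fit of all 25 libraries, without and with the run as a term. Of the 10427 genes tested there 262 passed in the main fit, 31 in the shared fit and 0 with the run added. Posterior oral against nasal fell to 0 with a minimum of 1 RPKM, with no minimum, in both fits of all 25 libraries and with the run as a term in its own fit. Over all genes 132 passed there in the main fit, and 113, 11, 68, 15 and 15 in these settings. The test of a changed lateral and medial difference gave 1 (Adamts6) in the fit of all 25 libraries without the run. In it 10 of 11089 genes passed. With the replicate number as a block, posterior oral against nasal also gave 0, beside 90 of 10586 genes, and no other count changed. Since it is not known that the numbers mark pairs, this says nothing of a weaker effect. Leaving out 1 library gave 2 to 3 members for anterior lateral against medial, 0 to 0 for posterior oral against nasal and 2 to 2 for posterior against anterior. Over all genes these refits called 55 to 195, 12 to 57 and 231 to 414. No direction reversed in 376 refits of single genes. Of these, 22 lost a call and 1 gained it. The remaining settings, pseudocounts of 1 and 0.01 and median centring, changed no count of adjusted calls. The study's threshold did depend on the pseudocount. At 1, it was passed by 2 rather than 6 members in posterior oral against nasal, beside 309 rather than 370 genes. In anterior oral against nasal 1 rather than 2 members passed it, beside 121 rather than 154 genes. In posterior lateral against medial 2 rather than 1 did, beside 122 rather than 116 genes.

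Depth limits the low genes: at 5 RPKM counting error alone is 12.4% to 24.7%, and most of the chromosome 9 genes lie near the value of single reads. The run cannot be told apart from the compartment in anterior lateral against medial or posterior lateral against medial, where no run held both.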

Other observations

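The balance of inhibitor and protease transcripts was summed per library. Summed Timp RPKM was 0.397 to 0.799 times the summed Mmp RPKM, with a median of 0.508. It was lowest by median in the posterior medial (0.422) and posterior nasal (0.456) compartments and highest in the anterior oral one (0.554), where the highest library, at 0.799, was the one with the lowest Mmp2. The posterior medial libraries ranged from 0.397 to 0.638, the latter in the second library, which stands apart. Mmp14 stood at 0.451 to 1.07 times the level of Mmp2, and Timp2 at 0.634 to 2.09 times. In the posterior nasal compartment Timp2 was 0.654 to 0.755 times Mmp2, against 0.806 to 0.866 times in the posterior oral compartment. These ratios compare transcript levels per length and were not tested.

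Summed Adamts RPKM lay between 157 and 242 RPKM over the 25 libraries and was 202 to 242 RPKM in the posterior nasal compartment, where Adamts1, Adamts3, Adamts4, Adamts14 and Adamts18 had their highest compartment means. The first posterior medial library (238 RPKM) and the first posterior lateral library (222 RPKM) fell within that range.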
